A study of Mus musculus with 11 samples.

Results

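Laminins are large glycoproteins of basement membranes, and the genes of 8 laminin chains were followed in cells from mouse kidneys after ureteral obstruction. The chains were chosen by symbol from the gene table, which lists 13985 genes. They are the alpha chain genes Lama2, Lama3, Lama4 and Lama5, the beta chain genes Lamb1, Lamb2 and Lamb3, and the gamma chain gene Lamc1. All 8 were listed and all 8 passed the minimum for testing, a mean of 0.5 FPKM over the samples. RNA-seq was done on 11 samples from C57BL/6 mice that the labels call primary kidney fibroblasts, and no genetic change or drug treatment is given for any group. Control kidneys gave 3 samples. Kidneys with unilateral ureteral obstruction (UUO), an operation that ties off 1 ureter and leads to fibrosis of that kidney, gave 4 samples at day 3 and 4 at day 7. The cells of every group were released by tissue digestion and enriched in serum-containing DMEM medium, with no sort or passage number given. Whether replicates are separate animals is not said, and the error used in each test is therefore the spread among the given samples, part of which may be technical.

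A laminin molecule is a trimer of 1 alpha, 1 beta and 1 gamma chain, joined along a coiled coil. The alpha chain carries the domains that bind integrins and dystroglycan on cells, and the gamma 1 chain binds nidogen, which links the laminin network to type IV collagen. In the mature kidney the alpha 5, beta 2 and gamma 1 chains form the main laminin of the glomerular basement membrane, the alpha 2 chain is found in the mesangium, and the alpha 4 chain is typical of vessel walls. The alpha 3 and beta 3 chains are part of the laminin that anchors epithelial cells at hemidesmosomes.

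The libraries held RNA of several kidney cell types besides fibroblasts. The 12 fibroblast and pericyte markers summed to 61.7 to 69.8 FPKM in control, 343 to 720 FPKM at day 3 and 1145 to 2906 FPKM at day 7, and none was at 0. The 10 proximal tubule markers summed to 11913 to 14491 FPKM in control, 967 to 1770 FPKM at day 3 and 559 to 688 FPKM at day 7. Most of each sum was Kap, at 11118, 894 and 445 FPKM on average, followed in control by Miox (780 FPKM) and Slc34a1 (666). Macrophage markers (11 rows for 10 symbols) summed to 625 to 943, 3868 to 6428 and 4901 to 5509 FPKM. Endothelial markers summed to 112 to 154, 157 to 175 and 107 to 180 FPKM. Of 10 endothelial markers 4 were higher and 3 lower at day 3 (limma adjusted p under 0.05), against 44.4% and 21% of all genes. At day 7, 3 were higher and 2 lower, against 46.3% and 23.5%. Pdgfra, a fibroblast receptor, was at 0.684 ± 0.0214 FPKM in control (SD, n = 3) and 9.88 ± 3.10 FPKM at day 7 (SD, n = 4). Col1a1 (15.2 FPKM), Rgs5 (13.5), Dcn (9.61) and Col1a2 (9.18) averaged more in control. Col1a1 and Col1a2 led the fibroblast and pericyte sums at both days. Of these 12 markers 9 were higher at day 3 and 10 at day 7, against 44.4% and 46.3% of all genes, and none was lower. Beside the proximal tubule markers, the labelled cell type was thus weakly marked in the control libraries. Podocyte markers, whose cells build the glomerular laminin, summed to 140 to 158, 74.4 to 106 and 99.0 to 140 FPKM, and smooth muscle markers to 77.6 to 84.3, 117 to 210 and 145 to 400 FPKM. After UUO the smooth muscle sums were led by Acta2 and Tagln. Of these 6 markers 3 were higher and 1 (Myh11) lower at day 3 (limma adjusted p under 0.05), against 44.4% and 21% of all genes. At day 7, 4 were higher and none lower, against 46.3% and 23.5%. Myh11 averaged 5.83, 2.43 and 4.76 FPKM in the 3 groups. Markers of injured epithelium summed to 872 to 1710, 1352 to 2243 and 1136 to 1363 FPKM, sums led by Cldn4, Krt8 and Krt18. Of these 10 markers 6 were higher at day 3 and none lower (limma adjusted p under 0.05), against 44.4% and 21% of all genes, and 5 higher and 2 lower at day 7 against 46.3% and 23.5%. Havcr1 averaged 0.705, 64.2 and 60.9 FPKM and Lcn2 6.57, 144 and 89.4 FPKM in the 3 groups. No marker of the lists named here averaged 0 in a group. In such bulk samples, fewer cells of a type and less RNA per cell cannot be told apart, and the part of cell makeup in the changes below was not tested. Genes of the mitochondrial genome took 25.4 to 35.9% of the summed FPKM in control and 4.27 to 7.94% after UUO.

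To show what lies upstream of chains with different courses, promoter windows of 300 bases (250 before and 50 after the RefSeq start) are printed for 4 of them. Lama2 was higher at both days, Lamb1 was higher from day 3, Lamb2 was higher at day 7, and Lama5 was called at neither day. The sequences are from RefSeq on GRCm38.p6, 5′ to 3′ on the strand of the gene. They lie at chr10:27616893-27617192 (minus strand) for Lama2, chr2:180225810-180226109 (minus strand) for Lama5, chr12:31265043-31265342 (plus strand) for Lamb1 and chr9:108479612-108479911 (plus strand) for Lamb2. Capitals mark GC boxes, which read GGGCGG on either strand, and E-boxes, which read CACCTG on either strand.
Lama2: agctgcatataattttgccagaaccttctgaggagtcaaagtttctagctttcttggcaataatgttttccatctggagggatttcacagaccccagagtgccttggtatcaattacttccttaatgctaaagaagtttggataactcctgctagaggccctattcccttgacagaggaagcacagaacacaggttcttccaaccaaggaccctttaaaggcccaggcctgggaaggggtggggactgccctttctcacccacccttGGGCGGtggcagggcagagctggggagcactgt
Lama5: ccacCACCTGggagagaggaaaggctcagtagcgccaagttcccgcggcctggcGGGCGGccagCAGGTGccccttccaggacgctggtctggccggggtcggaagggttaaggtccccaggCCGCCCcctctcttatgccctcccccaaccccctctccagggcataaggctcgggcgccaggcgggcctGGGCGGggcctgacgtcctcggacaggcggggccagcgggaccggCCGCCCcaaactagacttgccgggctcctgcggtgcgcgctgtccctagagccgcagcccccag
Lamb1: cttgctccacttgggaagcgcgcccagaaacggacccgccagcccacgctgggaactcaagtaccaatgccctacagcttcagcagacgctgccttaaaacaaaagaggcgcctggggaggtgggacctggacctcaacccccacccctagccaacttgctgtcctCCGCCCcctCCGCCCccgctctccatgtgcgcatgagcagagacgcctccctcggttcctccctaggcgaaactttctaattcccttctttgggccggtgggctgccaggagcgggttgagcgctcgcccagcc
Lamb2: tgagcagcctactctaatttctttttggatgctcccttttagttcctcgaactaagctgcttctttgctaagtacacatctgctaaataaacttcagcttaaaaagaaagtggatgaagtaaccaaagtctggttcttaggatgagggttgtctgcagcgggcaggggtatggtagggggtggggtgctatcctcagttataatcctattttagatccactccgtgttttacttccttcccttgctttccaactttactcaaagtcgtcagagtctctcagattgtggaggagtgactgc

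The Lama5 window was 72.7% G and C with 24 CpG pairs and held 4 GC boxes, and the Lamb1 window was 63.7% with 18 CpG pairs and 2 GC boxes. The Lama2 window was 50.3% with 1 CpG pair and 1 GC box, and the Lamb2 window was 44.0% with 4 CpG pairs and no GC box. Over 32851 RefSeq mouse promoter windows of the same length the median was 52.7%. A GC box, searched on both strands, was in 35.7% of all windows. The E-box CACCTG, bound by Snail and ZEB factors and overlapping no GC box here, matched 2 places in Lama5 and none in the other 3 windows, against 20.2% of all windows with a match. The start in the Lama2 window lies 99 bases from the nearest deposited transcript start, and the other 3 lie within 5 bases. The AP-1 element TGANTCA, present in 7.81% of all windows, matched none of the 4 on either strand. Neither did the TATA box, searched as the letters TATAAA and present in 13.6% of all windows. The TEAD element, searched as GGAATG and present in 14.7% of all windows, also had no match in these 4. Such matches describe the letters only. Windows of 5 of the 8 chains were examined, the fifth being Lamb3, which had 2 windows. In 1 of them the E-box matched 2 places and the TEAD element 1, and its start lies 250 bases from the nearest deposited transcript start. The other Lamb3 window, whose start lies 1 base away, matched none of the motifs searched.

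After UUO, more laminin chain genes were higher than lower. At day 3 Lama2, Lama4, Lamb1 and Lamc1 were higher than in control, Lama3 was lower, and Lama5, Lamb2 and Lamb3 did not pass the test. That was 5 of 8 called with limma at an adjusted p under 0.05, against 65.3% of all 13428 genes tested. By direction it was 4 of 8 higher against 44.4% of all genes, and 1 of 8 lower against 21%. At day 7 Lamb2 joined the higher chains, giving 5 of 8 higher against 46.3%, 1 of 8 lower against 23.5%, and 6 of 8 in either direction against 69.8%. These counts lie near the background, so the size of single changes is described below rather than the counts. The median log2 fold change of the 8 chains was 0.44 at day 3 and 0.86 at day 7, beside 0.26 and 0.28 over all genes tested. Fold changes are on log2(FPKM + 1), which understates the change of low genes. The median gene moved with the scaling, from 0.26 as deposited to 0.70 after rescaling to TPM and −0.07 after median centring at day 3, and from 0.28 to 0.77 and −0.03 at day 7. Calls over all genes went from 5957 higher and 2816 lower to 8246 and 1700 (TPM), 3743 and 4701 (median centred) and 4146 and 4358 (quantile normalized) at day 3. At day 7 they went from 6217 and 3162 to 8559 and 1967, 4251 and 4654, and 4535 and 4512. The fold changes of the 8 chains against control are therefore also given relative to the median gene.

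**Figure D1:**
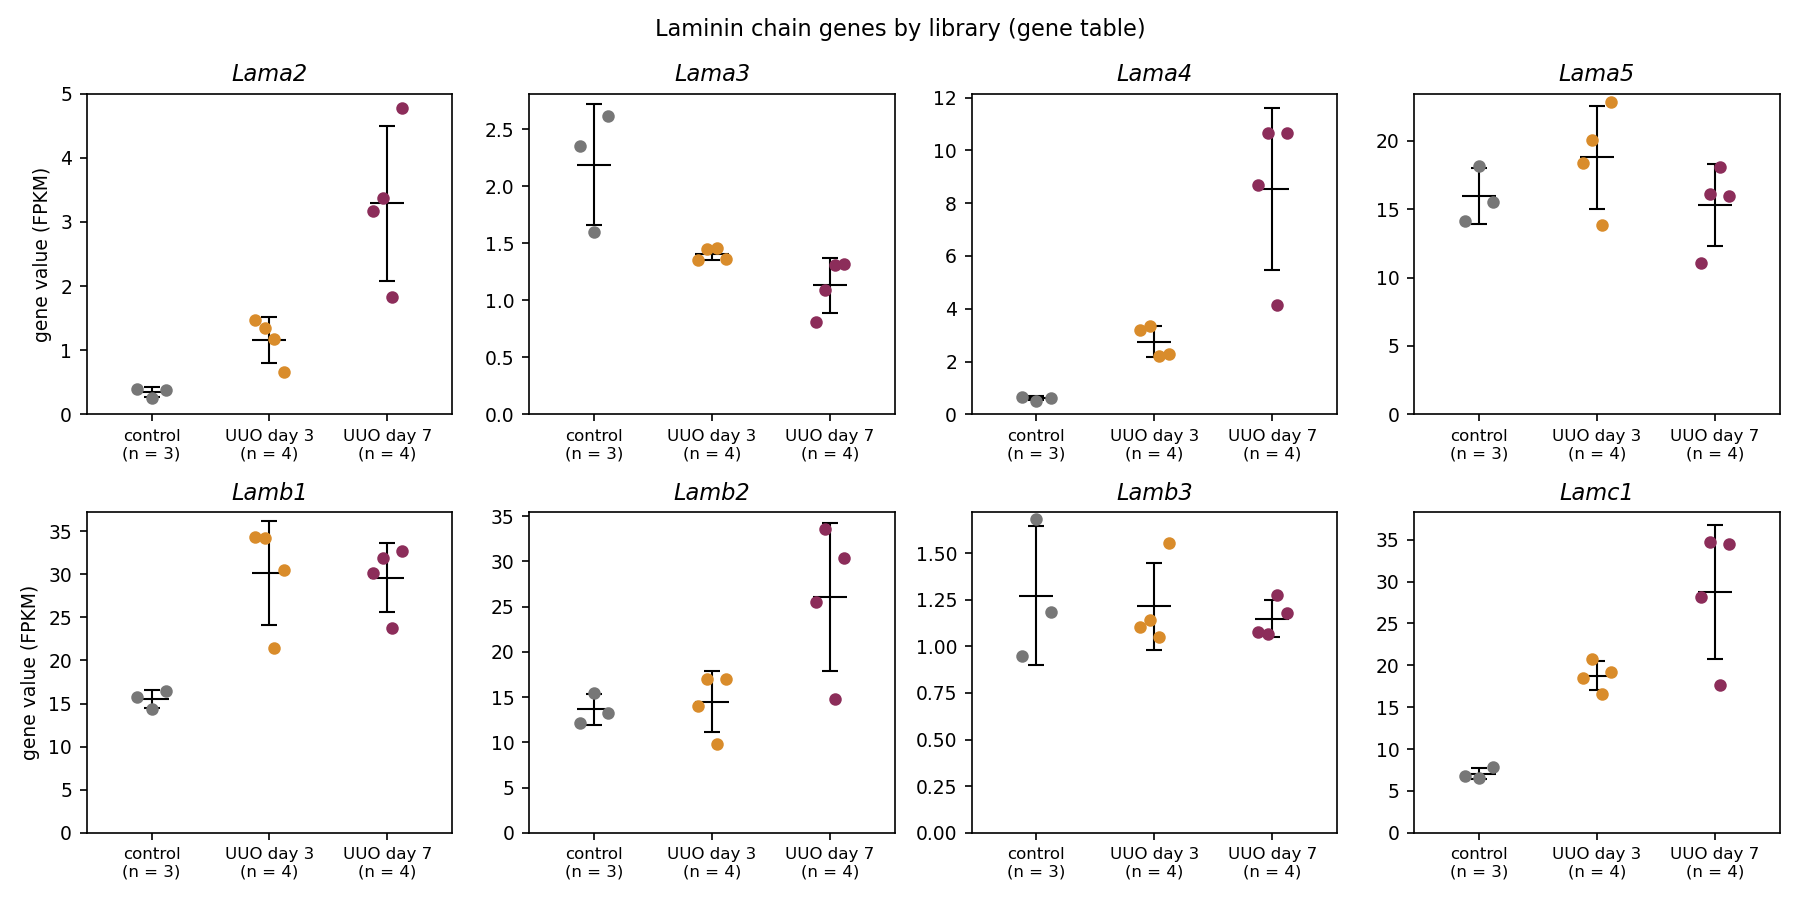
Gene FPKM of each of the 8 laminin chains in every library (points), with the group mean and SD (bars), for control (n = 3), UUO day 3 (n = 4) and UUO day 7 (n = 4). Lama4 and Lama2 separate all 3 groups, Lamb1 is as high at day 3 as at day 7, and Lama5 and Lamb3 overlap in all groups.

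Among the alpha chains, Lama4 changed most. The gene (ENSMUSG00000019846.11, chromosome 10, 38965515 to 39110188, plus strand, GRCm38) encodes the alpha 4 chain, which lacks the large N-terminal arm of full-length alpha chains and is common in vessels and mesenchyme. Lama4 stood at 0.664, 0.514 and 0.624 FPKM in control, at 3.18, 3.33, 2.22 and 2.27 FPKM at day 3, and at 8.67, 10.7, 4.13 and 10.7 FPKM at day 7. The 3 groups did not overlap, and day 7 replicate 3 was the lowest of its group. The means were 0.601 ± 0.0776, 2.75 ± 0.585 and 8.53 ± 3.08 FPKM (SD, n = 3, 4 and 4), so the day 7 mean was 14.2 times that of control. The log2 fold change was 1.22 at day 3 (SE 0.25, limma adjusted p = 0.000848), which is 0.95 above the median gene. At day 7 it was 2.50 (SE 0.25, limma adjusted p = 1.98e-06), or 2.22 above the median gene. The rise from day 3 to day 7 was 1.29 (SE 0.23, limma adjusted p = 0.00279). These calls of Lama4 held under all 23 alternatives in each comparison.

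Lama2 followed the same course at a lower level. The gene (ENSMUSG00000019899.16, chromosome 10, 26980036 to 27619758, minus strand) encodes the alpha 2 chain, whose loss causes a congenital muscular dystrophy. Lama2 measured 0.396, 0.252 and 0.376 FPKM in control, 1.47, 1.35, 1.17 and 0.660 FPKM at day 3, and 3.17, 3.38, 1.83 and 4.78 FPKM at day 7. No library of one group reached into another. The means were 0.341 ± 0.0782, 1.16 ± 0.359 and 3.29 ± 1.21 FPKM (SD, n = 3, 4 and 4), a day 7 mean 9.63 times that of control. Its log2 fold change was 0.68 at day 3 (SE 0.21, limma adjusted p = 0.0117) and 1.63 at day 7 (SE 0.21, limma adjusted p = 1.64e-05), or 0.41 and 1.36 above the median gene. The day 3 call was lost after median centring (0.34, adjusted p = 0.158) and after quantile normalization (0.37, adjusted p = 0.14), within a range of 0.000679 to 0.158 over 22 alternatives. From day 3 to day 7 it rose by 0.96 (SE 0.19, limma adjusted p = 0.00537).

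Lama5 was the most abundant alpha chain of the gene table in all 3 groups and passed the test in no comparison. The gene (ENSMUSG00000015647.9, chromosome 2, 180176373 to 180225859, minus strand) encodes the alpha 5 chain of the glomerular and tubular basement membranes. It stood at 14.2, 18.2 and 15.5 FPKM in control, 18.4, 20.1, 13.9 and 22.9 FPKM at day 3, and 11.1, 16.1, 18.1 and 15.9 FPKM at day 7, and the groups overlapped throughout. The log2 fold change was 0.21 at day 3 (SE 0.18, limma adjusted p = 0.333), −0.07 at day 7 (SE 0.18, adjusted p = 0.747) and −0.28 between the days (SE 0.17, adjusted p = 0.298). Relative to the median gene Lama5 stood at −0.054 at day 3 and −0.35 at day 7. After rescaling to TPM the day 3 value passed the test (0.64, adjusted p = 0.0086, within a range of 0.0086 to 0.884 over 23 alternatives).

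Lama3 was lower after UUO. The gene (ENSMUSG00000024421.16, chromosome 18, 12333819 to 12583013, plus strand) encodes the alpha 3 chain of epithelial laminin. Its values were 2.35, 1.60 and 2.62 FPKM in control, 1.35, 1.45, 1.46 and 1.36 FPKM at day 3, and 0.809, 1.09, 1.31 and 1.32 FPKM at day 7. Control libraries were all above the UUO libraries, and the day 3 and day 7 libraries did not overlap. Lama3 fell by 0.39 on the log2 scale at day 3 (SE 0.13, limma adjusted p = 0.0167) and by 0.57 at day 7 (SE 0.13, limma adjusted p = 0.00154), and the difference between the days was −0.18 (limma adjusted p = 0.337). Relative to the median gene the values were −0.66 and −0.85. Rescaled to TPM it was not called (−0.16, adjusted p = 0.446 at day 3, and −0.39, adjusted p = 0.0701 at day 7). The day 3 call was also lost without control replicate 1 (−0.35, adjusted p = 0.0645) or control replicate 3 (−0.30, adjusted p = 0.0865). Over 22 alternatives the adjusted p ran from 0.000327 to 0.446 at day 3 and from 4.94e-05 to 0.0701 at day 7. An annotated antisense gene, Gm29200, shares 197 exonic bases with Lama3, and another, Gm48084, shares 631 with Lama2. Whether counting used strand is not given in the sources used here, so reads over these bases cannot be assigned.

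Among the beta chains, Lamb1 rose by day 3 and stood at the same level at day 7. The gene (ENSMUSG00000002900.16, chromosome 12, 31265234 to 31329644, plus strand) encodes the beta 1 chain, which is widespread in embryonic and tubular basement membranes. Lamb1 measured 15.7, 14.4 and 16.4 FPKM in control, 34.3, 34.2, 21.5 and 30.5 FPKM at day 3, and 30.1, 31.9, 23.8 and 32.7 FPKM at day 7. All UUO libraries lay above all control libraries, and the days overlapped. The log2 fold change was 0.89 at day 3 (SE 0.17, limma adjusted p = 0.000446) and 0.88 at day 7 (SE 0.17, limma adjusted p = 0.000426), or 0.63 and 0.61 above the median gene, and the calls held under all 23 alternatives. Between the days it was −0.01 (SE 0.15, limma adjusted p = 0.972).

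Lamb2 was higher at day 7 and not at day 3. The gene (ENSMUSG00000052911.9, chromosome 9, 108479736 to 108490530, plus strand) encodes the beta 2 chain, and its loss in humans causes Pierson syndrome, a congenital nephrotic syndrome. Lamb2 stood at 12.2, 15.5 and 13.3 FPKM in control, 14.1, 17.0, 9.85 and 17.0 FPKM at day 3, and 25.5, 33.5, 14.8 and 30.3 FPKM at day 7. At day 7, replicates 1, 2 and 4 lay above every other library, and replicate 3 lay within the range of control. The log2 fold change was 0.06 at day 3 (SE 0.25, limma adjusted p = 0.848) and 0.83 at day 7 (SE 0.25, limma adjusted p = 0.0103), or −0.20 and 0.56 relative to the median gene. The day 7 call was lost after median centring (0.53, adjusted p = 0.0757, the highest of 23 alternatives, which began at 0.00042). The difference between the days was 0.77 (SE 0.23, limma adjusted p = 0.0415) and was not called under 11 of 23 alternatives, where adjusted p reached 0.117. Those 11 leave out control replicate 1 or 3, any 1 of the day 3 libraries, or day 7 replicate 1, 2 or 4, or use only the 2 groups or the summed transcripts.

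Lamb3 passed the test in no comparison. The gene (ENSMUSG00000026639.18, chromosome 1, 193207699 to 193343878, plus strand) encodes the beta 3 chain of epithelial laminin. It measured 0.949, 1.68 and 1.18 FPKM in control, 1.10, 1.14, 1.05 and 1.56 FPKM at day 3, and 1.08, 1.06, 1.27 and 1.18 FPKM at day 7, with all groups overlapping. The log2 fold change was −0.03 at day 3 (SE 0.12, limma adjusted p = 0.84), −0.07 at day 7 (SE 0.12, adjusted p = 0.63) and −0.04 between the days (SE 0.11, adjusted p = 0.85), and against control −0.29 and −0.35 relative to the median gene. After median centring Lamb3 was called lower at both days (−0.36, adjusted p = 0.0192, and −0.37, adjusted p = 0.0163), and after quantile normalization at day 7 (−0.41, adjusted p = 0.0137). Over 22 alternatives the adjusted p ran from 0.0192 to 0.978 and from 0.0137 to 0.756.

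Lamc1, the gamma chain shared by most laminins of the kidney, rose at both days. The gene (ENSMUSG00000026478.14, chromosome 1, 153218922 to 153332786, minus strand) stood at 6.83, 6.54 and 7.81 FPKM in control, 18.5, 20.7, 16.6 and 19.2 FPKM at day 3, and 28.1, 34.7, 17.6 and 34.5 FPKM at day 7. Every UUO library lay above every control library, and day 7 replicate 3 lay within the day 3 range. Lamc1 had means of 7.06 ± 0.664, 18.8 ± 1.70 and 28.8 ± 8.03 FPKM (SD, n = 3, 4 and 4), 2.66 and 4.07 times the control level at the 2 days. The log2 fold change was 1.29 at day 3 (SE 0.20, limma adjusted p = 9.7e-05) and 1.84 at day 7 (SE 0.20, limma adjusted p = 4.14e-06), or 1.03 and 1.56 above the median gene, and held under all 23 alternatives. Between the days it was 0.55 (SE 0.18, limma adjusted p = 0.0622). Without day 7 replicate 3 it was 0.76 (adjusted p = 0.0013), and it was also called under TPM (0.62, adjusted p = 0.0469), median centring (0.58, adjusted p = 0.0487) and quantile normalization (0.64, adjusted p = 0.0264), within a range of 0.0013 to 0.172.

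**Figure D2:**
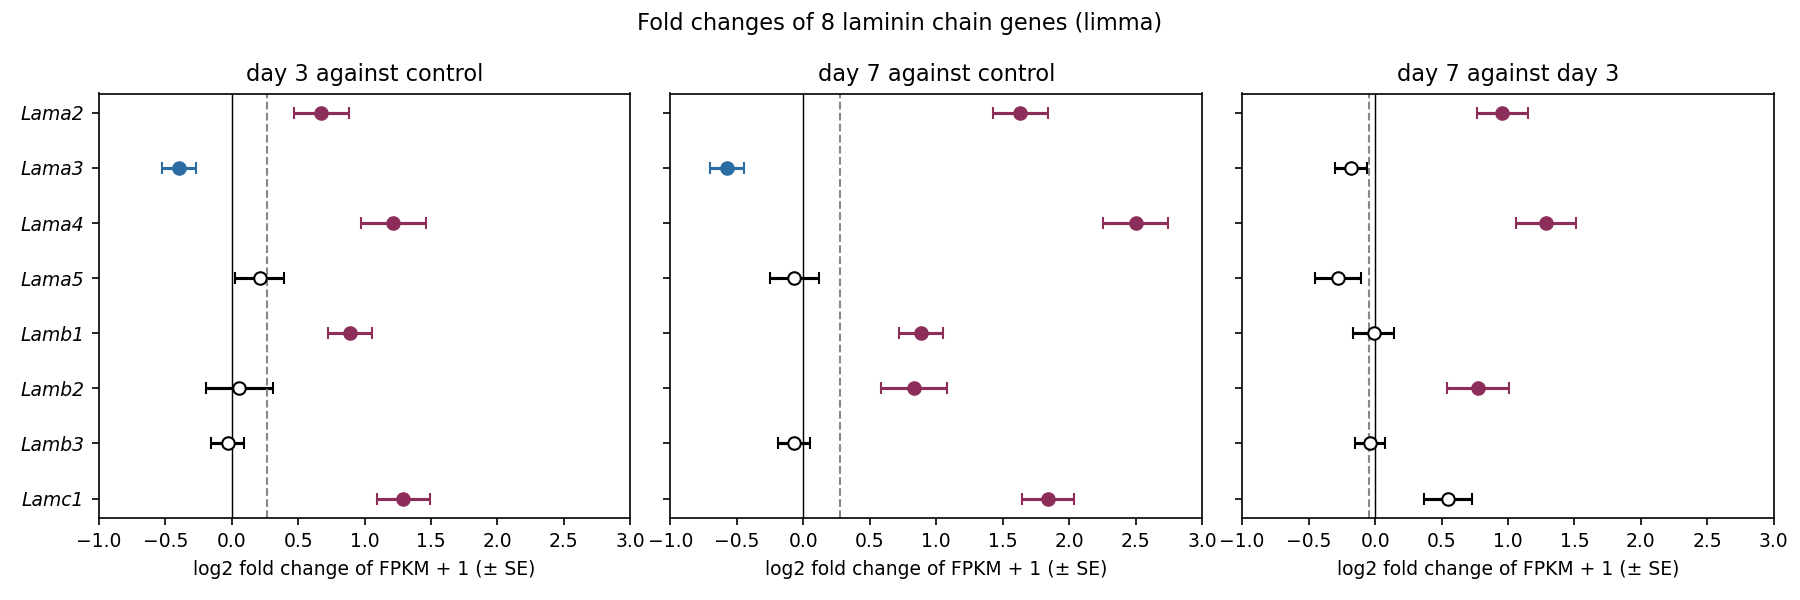
Log2 fold change of FPKM + 1 with its SE (x axis) for each chain (y axis) in 3 comparisons. Filled points passed the limma test (adjusted p under 0.05; red higher, blue lower), open points did not, and the dashed line is the median of all genes tested (0.26, 0.28 and −0.04).

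Between day 3 and day 7, 3 of the 8 chains were called, against 15.7% of all genes, and all 3 (Lama2, Lama4 and Lamb2) were higher, against 7.37% called higher and 8.37% called lower. As this comparison is the difference of the effects against control at the 2 days, it tests whether the course went on after day 3. The median of the 8 chains was 0.27, beside −0.04 over all genes. Day 7 replicate 3 was the lowest library of its group for Lama2, Lama4, Lamb1, Lamb2 and Lamc1 and the highest for Lama5. The fibroblast and pericyte markers summed to 1145 FPKM in that library and to 2597 to 2906 FPKM in the other 3 day 7 libraries. Its basement membrane partners summed to 419 FPKM against 676 to 843 FPKM, and its macrophage markers to 5509 FPKM against 4901 to 5134 FPKM. The part of these differences in the laminin values was not tested.

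The order of the levels depended on how FPKM was summed within a gene. In 1987 genes with every annotated transcript listed, each deposited gene value was within 1% of the transcript FPKM weighted by length and divided by the merged exon length of GENCODE M21. A gene with a long merged exon model thus has a gene FPKM below the sum of its transcripts. The merged exons of Lama4 span 12068 bases, while its 1 listed transcript, Lama4-201, has 6046. Summing the listed transcripts gave 1.72 times the gene value for Lama4 in control and 1.96 times at day 7. The ratio at day 7 was 1.87 for Lama2, 1.72 for Lamb1, 1.49 for Lamb3, 1.15 for Lamb2, 1.13 for Lama3, 1.10 for Lamc1 and 0.997 for Lama5. Listed transcripts are a subset, so both scales are estimates.

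On the summed scale Lamb1 stood first in control at 26.7 ± 1.70 FPKM (SD, n = 3), above Lamb2 at 16.5 ± 1.15 and Lama5 at 15.9 ± 2.02, which overlapped. Lamc1 at 7.83 ± 0.660 FPKM, Lama3 at 2.89 ± 0.652 and Lamb3 at 2.03 ± 0.604 followed, the last pair overlapping. Lama4 at 1.03 ± 0.104 FPKM and Lama2 at 0.612 ± 0.184 were lowest, and their ranges did not overlap. At day 3 Lamb1 led at 51.7 ± 10.3 FPKM (SD, n = 4), followed by Lamc1 at 20.7 ± 1.97, Lama5 at 18.8 ± 3.77 and Lamb2 at 17.0 ± 3.87, which overlapped one another. Below them stood Lama4 at 5.35 ± 1.15 FPKM, and then Lama2 at 2.04 ± 0.671, Lamb3 at 1.85 ± 0.395 and Lama3 at 1.70 ± 0.404, again overlapping. At day 7 Lamb1 was first at 50.9 ± 6.89 FPKM (SD, n = 4), followed by Lamc1 at 31.7 ± 8.59, Lamb2 at 29.9 ± 9.75, Lama4 at 16.7 ± 6.04 and Lama5 at 15.3 ± 2.99. Lamc1, Lamb2 and Lama4 each overlapped the chain that came next, so the order of Lama4 and Lama5 at day 7 was within the spread. In the gene table Lama4 stood below Lama5 at day 7, at 8.53 ± 3.08 against 15.3 ± 2.98 FPKM. Lama2 at 6.15 ± 2.67, Lamb3 at 1.71 ± 0.132 and Lama3 at 1.28 ± 0.302 FPKM closed the order, with no overlap between neighbours.

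**Figure D3:**
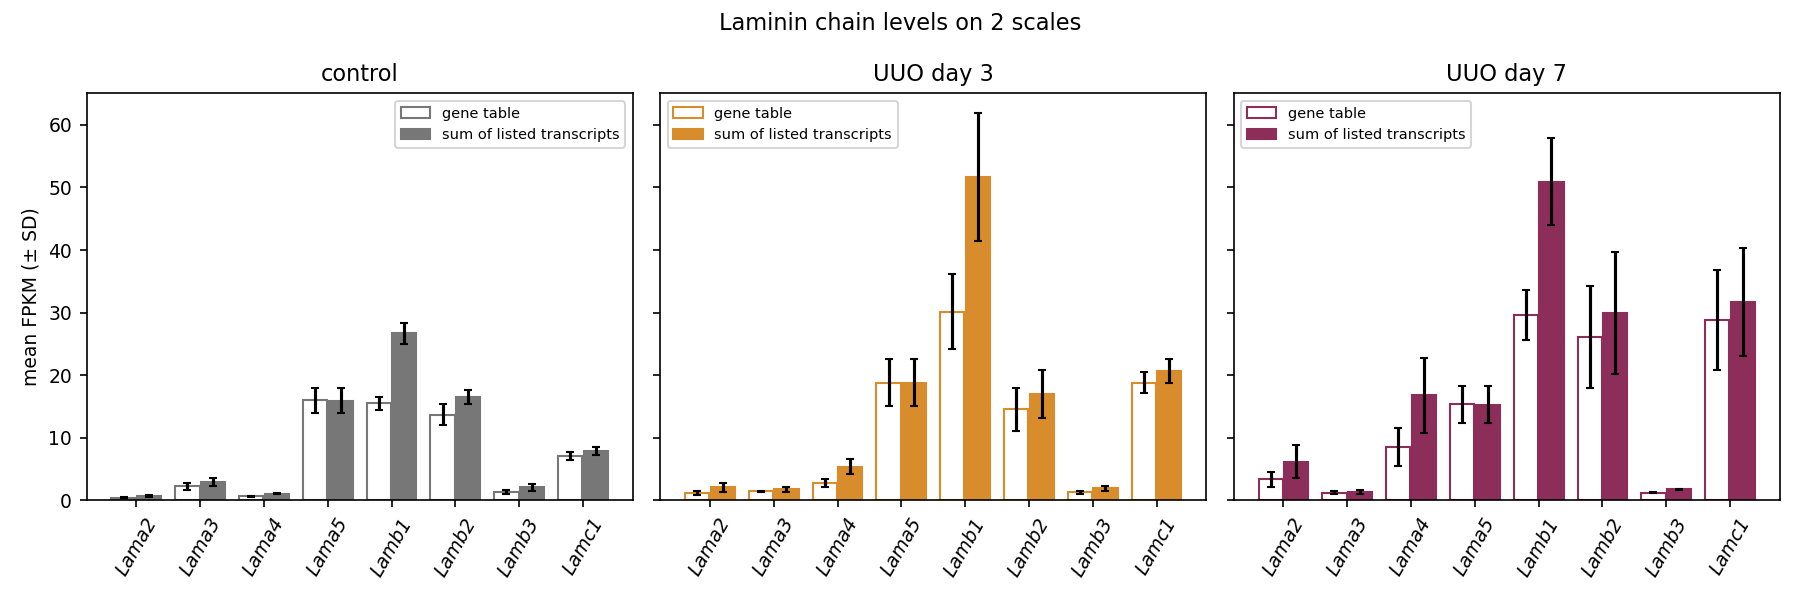
Mean FPKM (y axis, error bars SD) of the 8 chains in control (n = 3), UUO day 3 (n = 4) and UUO day 7 (n = 4). Open bars are the gene table and filled bars the sum of listed transcripts. Lama4 at day 7 is at 8.53 on the first scale and 16.7 on the second, while Lama5 is at 15.3 on both.

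The 4 alpha chains made up different shares of their summed FPKM in the 3 groups. Lama1, at 1.40 FPKM in control on the summed scale, was not counted in these shares. On the summed scale Lama5 made up 77.7% ± 3.95 of the FPKM of the 4 alpha chains in control (SD, n = 3), 67.0% ± 5.02 at day 3 and 40.0% ± 12.7 at day 7 (SD, n = 4 each). Lama4 made up 5.09% ± 0.717, 19.3% ± 3.36 and 41.6% ± 10.4, and Lama2 3.07% ± 1.20, 7.47% ± 2.59 and 15.2% ± 4.22. In day 7 replicate 3 the Lama5 share was 58.8%, while it was 31.7 to 36.2% in the other 3. Among the beta chains Lamb1 held 59.0% ± 3.64, 73.3% ± 2.82 and 62.4% ± 4.78, and Lamb2 36.5% ± 2.34, 24.0% ± 2.47 and 35.4% ± 5.41. The Lamb1 share was thus highest at day 3, where its 4 libraries (69.8 to 76.7%) lay above all control libraries and all day 7 libraries. These shares are descriptions with no test.

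**Figure D4:**
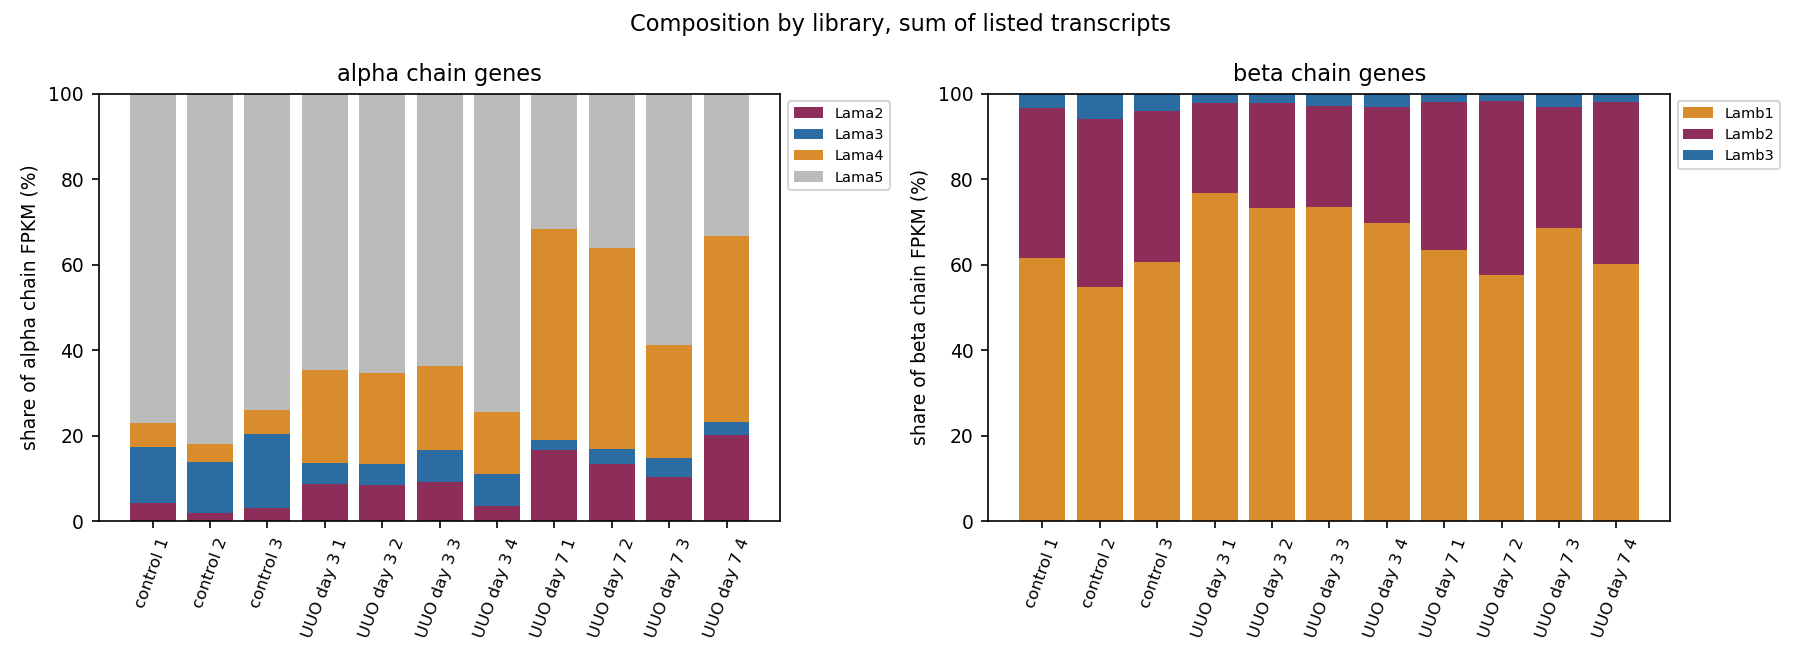
Share of each chain (y axis, % of the summed FPKM of its class, sum of listed transcripts) in each of the 11 libraries, alpha chains left and beta chains right. The Lama5 share runs from 74.1 to 81.9% in control and is 31.7 to 36.2% in 3 of 4 day 7 libraries and 58.8% in replicate 3.

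Whether 2 chains of a class changed unequally was tested with the log2 ratio of FPKM + 1 in each library, for 5 pairs in 3 comparisons, by two-sided exact permutation tests adjusted over the 15 tests. The Lama4 to Lama5 ratio was −3.19, −3.66 and −3.35 in control, −2.21, −2.28, −2.21 and −2.87 at day 3, and −0.32, −0.55, −1.89 and −0.54 at day 7, with no overlap between groups. Its mean rose by 1.01 to day 3 (SE 0.21, exact permutation p = 0.0571), by 2.57 from control to day 7 (SE 0.39, exact permutation p = 0.0571) and by 1.57 between the days (SE 0.39, exact permutation p = 0.0286). These are the smallest p-values that 3 against 4 and 4 against 4 libraries allow, and each was 0.107 after adjustment, so no pair passed. The Lama2 to Lama5 ratio differed by 1.70 at day 7 (SE 0.32, exact permutation p = 0.0571, adjusted 0.107). The Lamb1 to Lamb2 ratio was 0.35, −0.10 and 0.29 in control, 1.23, 0.97, 1.05 and 0.80 at day 3, and 0.23, −0.07, 0.65 and 0.10 at day 7. Day 3 stood apart from both other groups, by 0.84 from control (SE 0.17, exact permutation p = 0.0571, adjusted 0.107) and by −0.78 on going to day 7 (SE 0.18, exact permutation p = 0.0286, adjusted 0.107). Day 7 and control differed by 0.05 (SE 0.21, exact permutation p = 0.914). The other 2 pairs, Lama3 to Lama5 and Lamb3 to Lamb2, had adjusted p-values of 0.107 to 0.673.

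The transcript table lists 14 transcripts of the 8 genes, of which 12 passed the minimum of 0.5 FPKM. At day 3, 4 of the 12 were called, all higher (Lama2-201, Lama4-201, Lamb1-201 and Lamc1-201), against 41.2% of 23910 transcripts called, 27.6% higher and 13.7% lower. At day 7 these and Lama2-208 and Lamb2-201 were called higher, 6 of 12 against 45.6% called, 29.1% higher and 16.5% lower. Between the days Lama2-201 and Lama4-201 were called higher, 2 of 12 against 4.26% called, 2.25% higher and 2.01% lower. The call of Lama4-201 between the days was lost without day 3 replicate 4 (1.35, adjusted p = 0.0542), without day 7 replicate 4 (1.29, adjusted p = 0.0515) or with only those groups in the fit (1.42, adjusted p = 0.0512), within a range of 0.000552 to 0.0542 over 21 alternatives. Lama2-201 was not called under 9 of 21 alternatives at day 3 (median centring, quantile normalization, the replicate block, any 1 control library left out, or day 3 replicate 1, 2 or 3 left out; adjusted p up to 0.118). Between the days it was not called under 7 of 21 (only the 2 groups, the block, or day 3 replicate 2 or 4 or day 7 replicate 1, 2 or 4 left out; adjusted p up to 0.0797). Lama2-208 lost its day 7 call under 8 of 20 alternatives (both of those scalings, only the 2 groups, the block, any 1 control library or day 7 replicate 1 left out; adjusted p up to 0.123). Lamb2-201 lost its day 7 call under 6 of 21 (median centring, or control replicate 1 or 3 or day 7 replicate 1, 2 or 4 left out; adjusted p up to 0.1). Lama4-201 had 1.03 ± 0.104, 5.35 ± 1.15 and 16.7 ± 6.04 FPKM (SD, n = 3, 4 and 4), a log2 fold change of 3.04 at day 7 (SE 0.29, limma adjusted p = 1.24e-05). The rise of Lamb1 lay in Lamb1-201, at 20.2 ± 4.21, 46.7 ± 10.9 and 43.0 ± 9.48 FPKM, while Lamb1-205 stood at 6.45 ± 2.60, 4.97 ± 1.25 and 7.94 ± 3.39 FPKM and was not called. The difference between these 2 transcripts was not tested.

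The 2 listed transcripts of Lama3 took opposite shares in libraries of the same group. The long form Lama3-201 (10548 bases) stood at 2.38, 0.516 and 1.59 FPKM in control, 1.37, 1.43, 1.34 and 0.387 FPKM at day 3, and 0.804, 0.631, 1.32 and 1.31 FPKM at day 7. The short form Lama3-202 (5551 bases) stood at 0.0315, 2.12 and 2.04 FPKM in control, 0.0194, 0.0912, 0.273 and 1.90 FPKM at day 3, and 0.0372, 0.910, 0.0252 and 0.0606 FPKM at day 7. Control replicate 2, day 3 replicate 4 and day 7 replicate 2 had more of the short form and less of the long form than the other libraries of their group. In control replicate 3 both forms were above 1 FPKM. Neither form was called in any comparison, at adjusted p-values from limma of 0.345 and 0.644 at day 3 and 0.179 and 0.526 at day 7.

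Lama1, which encodes the alpha 1 chain, passed the test in no comparison. On the summed scale it stood at 1.40 ± 0.143 FPKM in control (SD, n = 3), 1.40 ± 0.272 at day 3 and 1.23 ± 0.333 at day 7 (SD, n = 4 each). Lamc3 stood under the minimum.

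Genes of the proteins that bind or cut laminins were counted from lists of their roles. Among 20 basement membrane partners 14 were higher and 2 lower at day 7, against 46.3% higher and 23.5% lower over all genes, with a median log2 fold change of 0.89 beside 0.28 over all genes. Nid1, the nidogen bound by the gamma 1 chain, had 4.20 ± 0.516 FPKM in control and 65.7 ± 24.6 FPKM at day 7 (log2 fold change 3.60, SE 0.27, limma adjusted p = 2.29e-07). Fbln2 (fibulin 2) rose by 4.37 and Col15a1 (type XV collagen) by 3.45. The 2 that fell were Col4a3 (−1.79) and Col4a4 (−1.65), chains of the type IV collagen of the glomerular basement membrane. At day 3 the counts were the same, 14 and 2, against 44.4% and 21% of all genes, and between the days 4 of 20 were higher against 7.37%.

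Of 13 receptor genes, 8 were higher and 3 lower at day 7 against 46.3% and 23.5% of all genes, and 5 higher and 1 lower at day 3 against 44.4% and 21%. Itgb1, the beta 1 subunit of most laminin-binding integrins, went from 59.3 ± 8.09 to 141 ± 10.8 FPKM (1.24, SE 0.15, limma adjusted p = 9.3e-06). Sdc1 (syndecan 1) rose by 1.96 and Mcam, which binds the alpha 4 chain, by 1.54. Itga3 (−0.77), Bcam, a receptor of the alpha 5 chain (−0.63), and Sdc4 (−0.71) fell, and none of these 3 calls held after rescaling to TPM (limma adjusted p = 0.162, 0.516 and 0.118). After median centring or quantile normalization 7 of 13 were called at day 7. In the dystroglycan complex and its glycosylation enzymes, 8 of 20 were higher and 6 lower at day 7, near the 46.3% and 23.5% of all genes, with a median of 0.0027 beside 0.28. Dag1, dystroglycan itself, was not called (22.5 ± 5.39 and 26.7 ± 6.07 FPKM, 0.24, limma adjusted p = 0.389), while Sspn (sarcospan) rose by 1.32, Sgcb by 1.07 and Sntb2 by 1.07.

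Of 11 proteases that can cleave laminin chains, 9 were higher and 1 lower at both days, against 44.4% and 21% of all genes at day 3 and 46.3% and 23.5% at day 7, with a median of 2.06 at day 3 and 3.29 at day 7. Mmp2 went from 2.71 ± 0.442 to 97.0 ± 32.6 FPKM (4.65, SE 0.27, limma adjusted p = 3.97e-08). Mmp14, the membrane-bound activator of Mmp2, rose by 4.43 and the cathepsin gene Ctss by 3.69. Hpn (hepsin), a protease of tubule cells, fell by 1.90. Of 5 hemidesmosome genes tested, Plec (1.05), Itga6 (0.72) and Itgb4 (0.44) were higher at day 7, against 46.3% of all genes, and Dst and Cd151 were not called. After median centring Itga6 (limma adjusted p = 0.0895) and Itgb4 (0.473) lost their calls, as they did after quantile normalization (0.0646 and 0.532). Col17a1 stood under the minimum.

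**Figure D5:**
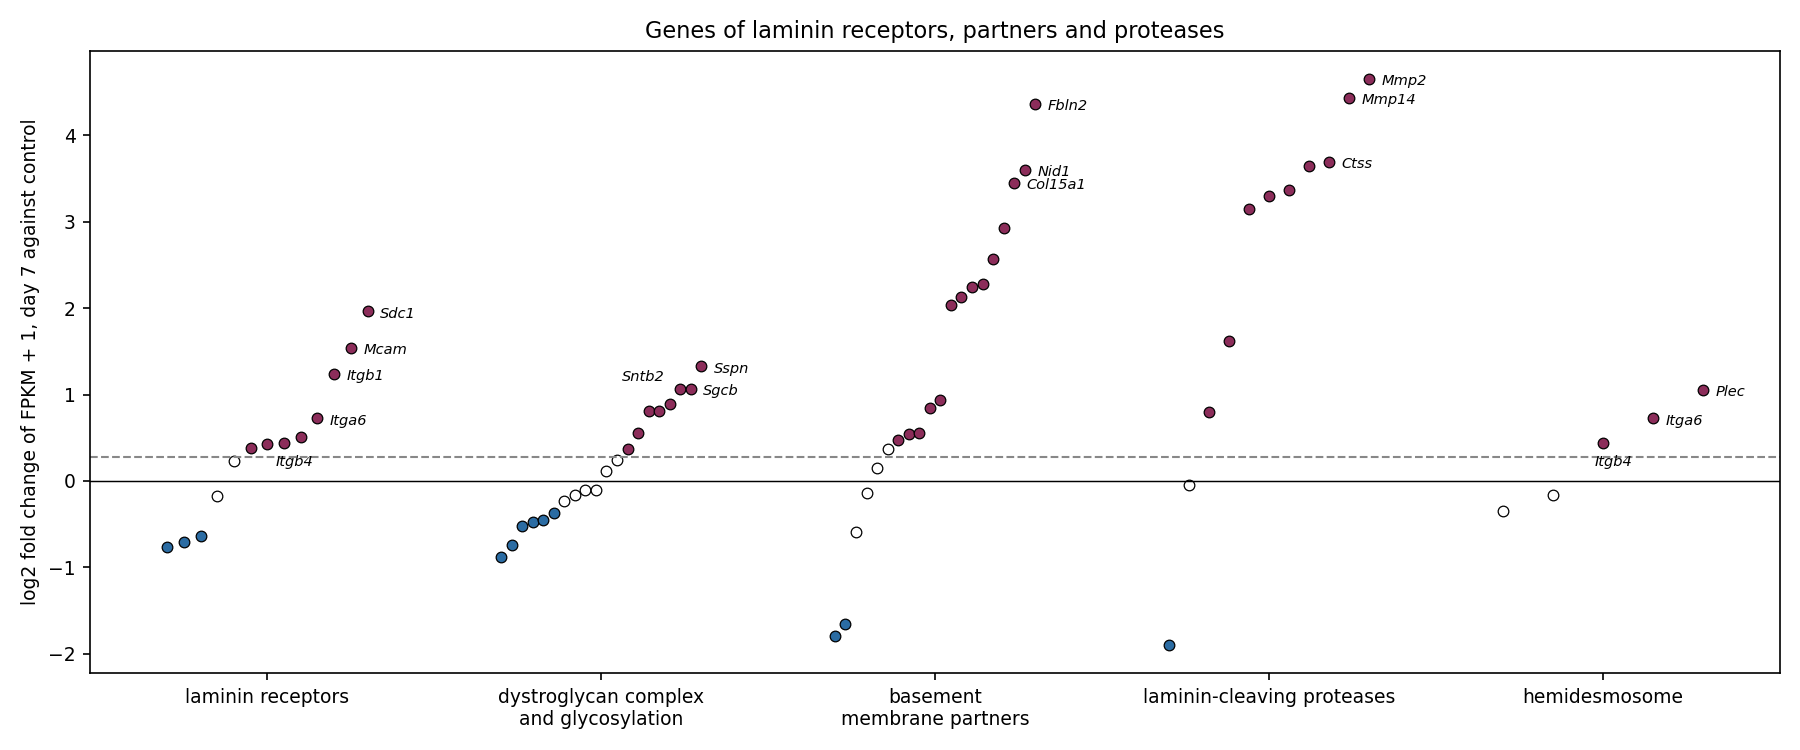
Log2 fold change at day 7 against control (y axis, FPKM + 1) of each tested gene in 5 lists of laminin partners (x axis), sorted within a list. Filled points passed the limma test (red higher, blue lower) and the dashed line is the median of all genes (0.28). Mmp2 (4.65) and Fbln2 (4.37) are at the top and Hpn (−1.90) at the bottom. Itga6 and Itgb4 stand in 2 lists.

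Genes whose course over the 11 libraries was most like that of each chain were found by the root mean square difference in log2(FPKM + 1), after subtracting each gene's control mean. For Lama4 these were Rhoj (0.13), P3h3 (0.19) and Ptgfrn (0.21), and for Lama2 they were Fbln5 (0.17), Cd34 (0.18) and Svil (0.19). Lamc1 ran closest to Sec24d (0.14), Serpinb6a (0.16) and Gpc3 (0.16), Lamb1 to Cyp20a1 (0.14), Ptpn21 (0.15) and Bzw2 (0.16), and Lamb2 to Pcolce (0.19), Rarres2 (0.20) and Gpc1 (0.20). Among the genes closest to Lama5 were Ly6a (0.11) and Hdac6 (0.14). Lama3 ran with Frrs1 (0.08), Rnf14 (0.10) and Atp6v1a (0.10), and Lamb3 with Fibp (0.08), Myl12b (0.08) and Dph3 (0.09). These distances describe the 11 libraries only and carry no test.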

How the data were processed

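RNA was measured in 11 samples, grouped by the sample titles into control (n = 3), UUO day 3 (n = 4) and UUO day 7 (n = 4). Per the labels' protocols, Trizol RNA was made into stranded libraries and run on a NovaSeq. Tools named without version, per the submitters' processing notes, are HISAT2, StringTie and cutadapt, and the build is GRCm38. Neither the annotation release nor the way of counting is given in the sources used here. The authors deposited FPKM values (fragments scaled to length and library) for 13985 genes and 26807 transcripts. Both tables hold 1 empty line. The depth of each sample is unknown, so no counting interval is given.

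Values were used as deposited. log2(FPKM + 1) of 13428 genes and, separately, 23910 transcripts with a mean of at least 0.5 FPKM was fitted with limma 3.58.1 (R 4.3.3), with 3 groups, a mean-variance trend and Benjamini-Hochberg adjustment within each comparison, and called under 0.05. The script was tested on simulated data. Chain ratios used exact permutation tests, with Benjamini-Hochberg adjustment by scipy 1.17.1. Partner genes named are the 3 with the largest absolute change at day 7 among those called with some group averaging at least 1 FPKM, plus genes that account for an exception. Like genes had a mean of at least 5 FPKM. Results for 2 genes are not reported here. The members and lists were chosen with earlier results of these data known. Of the genes, 12271 matched GENCODE M21 by versioned identifier. Deviations of same-numbered samples from their group means correlated at 0.168, 0.428 and 0.166 between day 7 and control. These correlations were 0.0478, −0.138 and 0.231 between day 3 and control, and 0.103, −0.0268, 0.338 and −0.0298 between the days. Samples of different number were not compared, so these values cannot show whether the numbers pair, and no label says that they do. Alternatives were pseudocount, minimum, scaling, block, trend, groups fitted and each replicate left out. Summed transcripts and the omission of day 3 replicate 1 with day 7 replicate 3 were added after seeing the data.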

Additional observations from a re-analysis of the deposited data

Results flagged for a closer look

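Several laminin transcripts had 1 library far from the other 3 of its group, measured by the gap to the nearest library over the whole range. At day 3 these were Lama2-208 at 0.666 FPKM in replicate 2, Lama3-201 at 0.387 FPKM in replicate 4 and Lama3-202 at 1.9 FPKM in replicate 4. At day 7 they were Lama2-208 at 2.75 FPKM in replicate 4, Lama3-202 at 0.91 FPKM in replicate 2 and Lamb2-206 at 0.372 FPKM in replicate 2. Of 44 groups of 4 libraries examined, 6 stood out so. The cutoff has a rate of about 1 in 20 only for independent values with a normal spread. FPKM near 0, and transcripts of 1 gene that share reads, do not meet this, so no excess over chance can be read. No gene-level value of the 8 chains did.

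The effect of UUO differed between day 3 and day 7 for 3 genes, by the limma test of day 7 against day 3 (adjusted p under 0.05). The difference was 0.96 for Lama2, 1.29 for Lama4 and 0.77 for Lamb2 on the log2 scale. Day 7 libraries all lay above day 3 libraries for Lama2 and Lama4, and 3 of 4 did for Lamb2. The transcripts Lama4-201 (1.42) and Lama2-201 (1.1) differed in the same test.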

How the results depend on the processing

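The calls of Lama4, Lamb1 and Lamc1 against control, and of Lama2 at day 7, held under every alternative in which the gene was tested. With a minimum of 2 FPKM Lama2 was left out, and 3 chains rather than 4 were called higher at day 3. Uncalled values near 0 changed sign. For Lama5 at day 3 (0.21) these were −0.12 median centred and −0.032 quantile normalized, and at day 7 (−0.07) 0.40 with TPM and −0.15 to 0.068 with a replicate left out. For Lamb1 between the days (−0.01) they were 0.042 with TPM, 0.021 median centred, 0.055 quantile normalized, 0.029 rescaled without mitochondrial genes and 0.16 without day 3 replicate 1 and day 7 replicate 3 together, with −0.16 to 0.088 leaving out 1 replicate. For Lamb2 at day 3 (0.06) they were −0.28 median centred, −0.19 quantile normalized, −0.028 with the replicate block and −0.024 to 0.22 leaving out 1 replicate. Lamb3 gave 0.30 at day 3 and 0.29 at day 7 with TPM, −0.13 to 0.10 and −0.17 to 0.057 leaving out 1 replicate, and −0.074 to 0.032 between the days. The Lama3 to Lama5 ratio between the days (0.10) was −0.016 with pseudocount 0.1 and −0.0062 to 0.24 leaving out 1 replicate. The Lamb1 to Lamb2 ratio at day 7 (0.05) was −0.089 to 0.15 and, with both libraries left out, −0.089, and Lamb3 to Lamb2 at day 3 (−0.09) was −0.22 to 0.0070.

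Chains called lower (1 at each day) were 0 with a minimum of 2 FPKM, which leaves out Lama3, 0 with TPM and 2 after median centring, and 2 at day 7 after quantile normalization, with 0 to 1 leaving out 1 replicate at day 3. Between the days, basement membrane partners called (4) were 7 with TPM, 7 median centred and 9 with both libraries left out, and 4 to 9 leaving out 1 replicate. Dystroglycan genes called (8, 14 and 2 in the 3 comparisons) were 5, 7 and 0 with a minimum of 2 FPKM, and for the last 4 quantile normalized, 5 with both libraries left out and 2 to 4 leaving out 1. Receptors called at day 7 (11) were 7 median centred and 7 quantile normalized, and between the days (4) 1 to 5 leaving out 1 replicate. Hemidesmosome genes between the days (1) were 0 with only the 2 groups and 0 to 2 leaving out 1. Laminin transcripts between the days (2) were 0 with only the 2 groups, 4 with both libraries left out and 0 to 4 leaving out 1. The cause of these shifts was not tested beyond the fewer genes of the higher minimum. The replicate block changed no call of the 8 genes and no count by over 1.5 times. With the block Lama2-201 was not called at day 3 (0.82, adjusted p = 0.0608) or between the days (1.10, adjusted p = 0.0714), nor Lama2-208 at day 7 (0.74, adjusted p = 0.0915). Unknown depth limits the low chains, Lama2, Lama3 and Lamb3.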
